A study of Tachycineta bicolor with 20 samples.

Results

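The ovaries described here came from 10 adult female tree swallows (Tachycineta bicolor) that were left undisturbed, out of 20 females whose ovarian RNA was sequenced. They are defined by their labels, as the 5 control birds of Day 0 and the 5 control birds of Day 2. In the study, some birds lost their nest boxes temporarily, which raised competition in the wild population, and each control group was matched by date to the challenged birds of the same day. Day 0 is the peak of competition and Day 2 is 2 days after it, so the control birds of both days differ in collection date and share the absence of any treatment. All birds were wild, each library came from 1 bird, and the labels give no stage of the ovary and no exact age. The comparison asks how far ovaries of untreated females differed between the collection days, which is a difference without the challenge.

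The ovary of a songbird holds an oocyte in each follicle, granulosa cells that surround it, theca cells outside them that take part in steroid synthesis, and supporting tissue, vessels and blood cells. In the breeding season a few follicles take up yolk and grow quickly toward ovulation while many small follicles remain, and the emptied follicle regresses after ovulation, so the makeup of the organ can alter over days. RNA of the whole organ was measured, so fewer cells of a type and less RNA per cell cannot be told apart. The table names each transcript by an ID that is paired with no gene name, and 0 of 61 ovarian, steroid synthesis and other marker symbols matched an ID or its stem. The labelled tissue was therefore not checked against markers, and no role can be given to any transcript below.

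Total counts ran from 8304445 to 13856417 on Day 0 and from 8927386 to 13376380 on Day 2. The difference in mean depth was smaller than the spread among birds (exact permutation test, two-sided p = 0.921, adjusted over 8 measures 0.952). Of 14782 transcripts in the table, 13845 had at least 1 count in all 10 birds and 13341 had counts high enough to be tested. No pair of birds of 1 day was alike enough to be a repeat of 1 library, since chi-square divided by its degrees of freedom was 23.6 to 65.9 for their counts over transcripts, where sampling noise alone gives values near 1.

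No transcript differed between the days at an adjusted p under 0.05 by edgeR's quasi-likelihood test, the threshold for a call (0 of 13341 transcripts, or 0%), and the smallest adjusted p was 0.135. At an unadjusted p under 0.05 there were 1821 transcripts (13.6% of those tested), of which 892 (6.69%) were higher on Day 2 and 929 (6.96%) lower. The range of the same width from 0.95 up held 505 transcripts, so small p were more frequent than evenly spread p-values give. At an adjusted p under 0.20 there were 225 transcripts, 130 higher and 95 lower. Transcripts are not independent of each other, so this excess carries no test. DESeq2 on the same 10 birds called 302 transcripts, 172 higher and 130 lower, and limma-voom called 0. All 302 were also at an unadjusted p under 0.05 in edgeR. With library totals in place of TMM factors, which scale each library to the bulk of its transcripts, the 1801 transcripts at an unadjusted p under 0.05 split into 616 higher and 1185 lower, so the even split between directions depends on the scaling. It also moved with other choices, to 812 higher and 1125 lower with no filter and to 754 and 1126 with all 20 birds in the fit. DESeq2 (989 and 1053) and limma-voom (1152 and 1156) kept it near even. Here limma-voom used the same TMM factors and DESeq2 its own scaling factors, so neither shows the split without such scaling. Day 0 birds 1 and 2 stood apart from the other Day 0 birds on component 1 of the 500 most variable transcripts, described below. They did not by distance in log2 CPM from the mean of the other Day 0 birds. By that measure bird 2 was nearest (59.97) and bird 5 farthest (72.53). Without Day 0 birds 1 and 2, 1204 transcripts were at an unadjusted p under 0.05. That fit had fewer birds and so less power, and the part of this in the lower count was not tested. The precision of the comparison was moderate. The median standard error of a log2 fold change was 0.205, and the 95% interval lay within a 2-fold change in either direction for 75.9% of transcripts.

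The transcript tree_swallow018098t1_sg0.0 had the smallest p among those higher on Day 2. Its level was 71.7, 54.9, 66.5, 60.5 and 54.9 CPM (the count relative to the library total, scaled by TMM) in Day 0 birds 1 to 5, and 96.6, 111, 136, 104 and 111 CPM in Day 2 birds 1 to 5. Every Day 2 bird lay above every Day 0 bird. The means were 61.7 ± 7.37 CPM (SD, n = 5) and 111.7 ± 14.7 CPM (SD, n = 5), a log2 fold change of 0.86 (SE 0.129, 1.81-fold), with an edgeR adjusted p of 0.135 that did not pass. Next was tree_swallow005543t1_sg0.0. It stood at 88.9, 87.3, 84.7, 83.9 and 70.3 CPM in Day 0 birds 1 to 5, and at 159, 117, 168, 136 and 140 CPM in those of Day 2. The groups again did not overlap, and the Day 0 birds other than bird 5 lay within a few CPM of each other. Its log2 fold change was 0.80 (SE 0.125, 1.74-fold), with an edgeR adjusted p of 0.135.

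Among transcripts lower on Day 2, tree_swallow000006t1_sg0.0 had the smallest p. It measured 137, 141, 129, 116 and 146 CPM in Day 0 birds 1 to 5 and 71.3, 65.2, 69.9, 92.5 and 88.2 CPM in Day 2 birds 1 to 5. No Day 2 bird reached the lowest Day 0 bird. The means were 134 ± 11.9 CPM (SD, n = 5) and 77.4 ± 12.1 CPM (SD, n = 5), which is a log2 fold change of -0.79 (SE 0.129) with an adjusted p of 0.147 in edgeR. A second transcript of the same stem, the part of the ID before the transcript number, had a log2 fold change of -0.23 (edgeR adjusted p = 0.61) over 7.11 to 12.1 CPM, with overlapping groups. The sources used here do not give the rule by which shared reads went to transcripts of 1 stem, and values of such transcripts are uncertain for that reason.

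A scarcer transcript, tree_swallow000748t1_sg0.0, was next. Its level was 6.30, 6.98, 4.94, 6.90 and 10.2 CPM in Day 0 birds 1 to 5, from 53 to 98 counts, and 2.58, 2.81, 2.07, 2.84 and 1.88 CPM in those of Day 2, from 16 to 36 counts. All Day 2 birds were under 3 CPM and all Day 0 birds were above it. The log2 fold change was -1.53 (SE 0.265, 2.88-fold lower), with an edgeR adjusted p of 0.164. DESeq2 called all 4 of these transcripts, at adjusted p from 6.55e-06 to 0.000166. In contrast, edgeR passed none of them in any of its alternatives or with any 1 bird left out. All 4 were picked by smallest p in these same birds, which favours separated groups, large fold changes and a small p in DESeq2. Their separation and DESeq2 calls are therefore no separate evidence of a difference between the days.

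**Figure D1:**
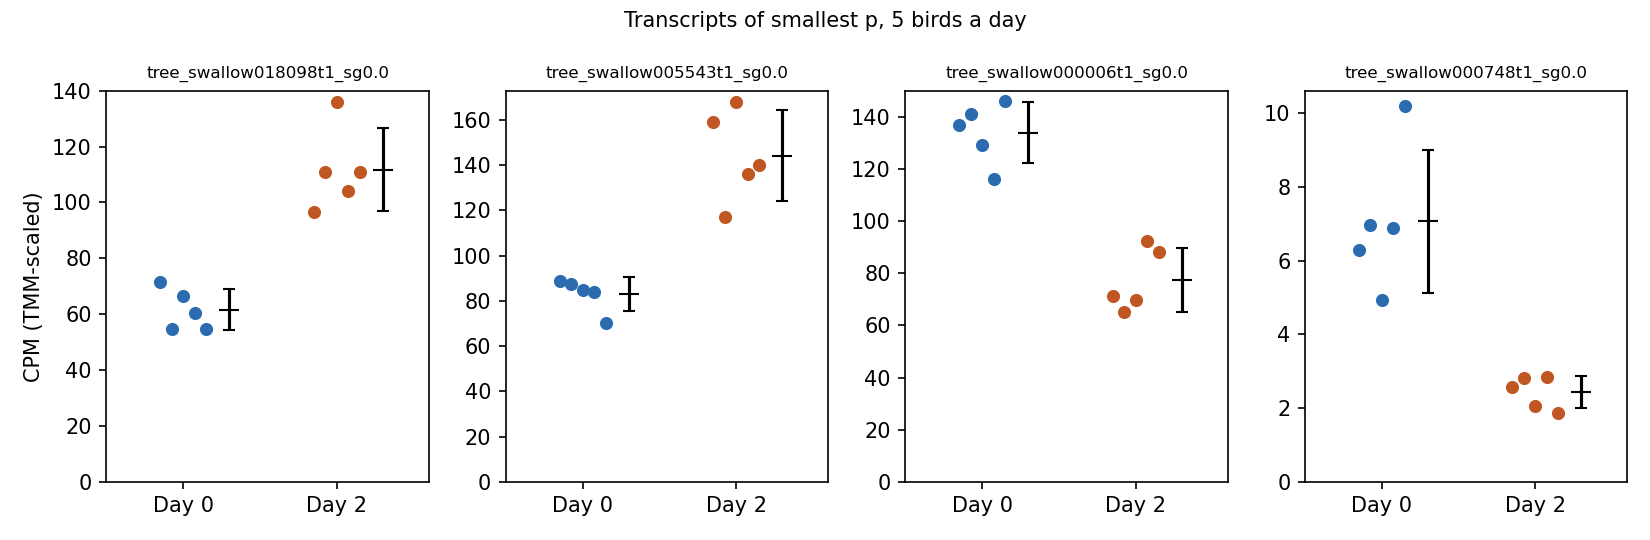
TMM-scaled CPM of the 2 transcripts of smallest p in each direction, with 1 point per bird (birds 1 to 5 from left to right) and the mean ± SD beside them. In each panel the 5 Day 2 birds and the 5 Day 0 birds do not overlap, although no transcript passed the adjusted threshold in edgeR. The transcripts were picked by p in these same birds, which favours such a separation.

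Separation of all birds was then counted without a model. In 402 transcripts (3.01% of those tested) every Day 2 bird lay on 1 side of every Day 0 bird, with 282 (2.11%) higher on Day 2 and 120 (0.899%) lower. With library totals in place of TMM factors the counts were 184 higher and 159 lower. The Day 2 factors ran from 0.957 to 0.999 and the Day 0 factors from 0.999 to 1.05, so the scaling itself moved with day. The higher transcripts were mostly small differences, with a median log2 fold change of 0.43 over all 282 and 3 of them past a 2-fold change. The lower ones were larger, with a median of -0.78 and 37 of 120 past 2-fold. They were also scarcer, with a median level of 11.7 CPM against 86.8 CPM for the higher ones. Scarce transcripts had larger SEs, so a larger change is needed there to separate all birds. The part of this in the sizes was not tested.

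The direction of the differences followed abundance. When tested transcripts were divided into 5 equal bins by their mean level over the 10 birds, the least abundant bin (median 3.38 CPM) held 30 transcripts higher and 359 lower on Day 2 at an unadjusted p under 0.05. The second bin (median 13.0 CPM) held 85 higher and 273 lower. The middle bin (median 31.2 CPM) was nearly even, with 168 higher and 147 lower. In the fourth bin (median 67.2 CPM) 275 were higher and 99 lower, and in the most abundant bin (median 167 CPM) 334 were higher and 51 lower. The share of transcripts at an unadjusted p under 0.05 was similar in the 5 bins, from 11.8% to 14.6%, beside 13.6% over all transcripts, so the bins differed in direction far more than in number.

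**Figure D2:**
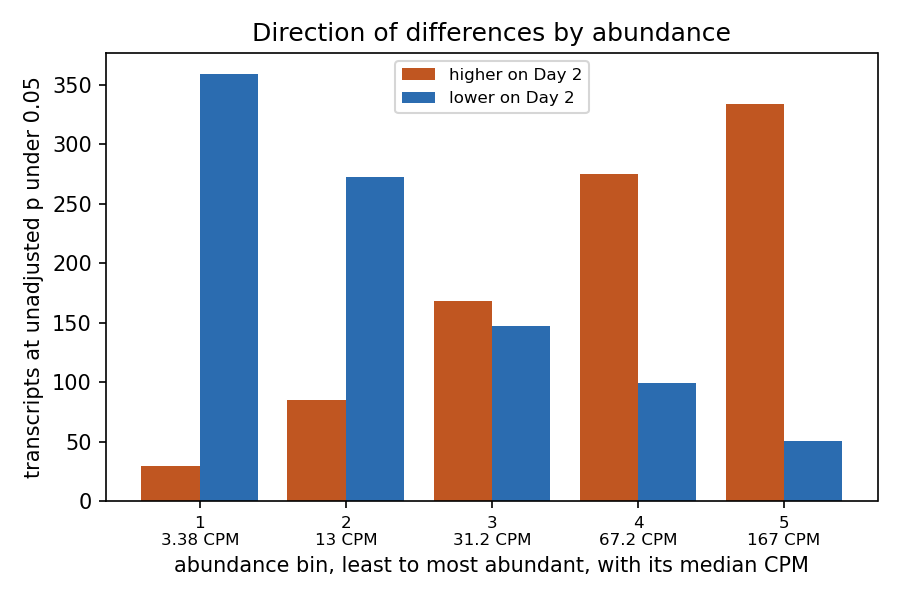
Number of transcripts at an unadjusted p under 0.05 in each of 5 equal bins of abundance, with those higher on Day 2 and those lower on Day 2 as separate bars. The bars cross in the middle bin, from 359 lower against 30 higher among the least abundant to 51 lower against 334 higher among the most abundant.

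The same order was seen over all transcripts of a bin. The median log2 fold change was -0.31 in the least abundant bin and -0.09 in the second, then 0.02, 0.07 and 0.09 in the others, beside a median of -0.005 over all tested transcripts. With library totals in place of TMM factors the medians were -0.36 in the least abundant bin and 0.04 in the most abundant. The directions at both ends thus did not turn with this scaling, but the counts at an unadjusted p under 0.05 moved. The least abundant bin then held 26 higher and 432 lower, and the most abundant 225 higher and 83 lower. Leaving out any 1 bird gave medians of -0.41 to -0.27 in the least abundant bin and 0.07 to 0.11 in the most abundant. The TMM-scaled counts at both ends also moved with single birds. In the least abundant bin the 359 lower became 249 without Day 2 bird 1 and 498 without Day 2 bird 2. In the most abundant bin the 334 higher became 217 without Day 0 bird 2 and 393 without Day 0 bird 4. The 51 lower of that bin became 99 without Day 2 bird 2, 33 without Day 2 bird 3 and 28 without Day 2 bird 5. Without Day 0 birds 1 and 2 together the least abundant bin held 36 higher and 233 lower (median -0.21) and the most abundant 181 higher and 37 lower. Levels are relative to the library total and not per length, so a bin of abundance is also in part a bin of transcript length, and lengths were not used here. Transcripts are not independent of each other, and these counts therefore carry no test.

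**Figure D3:**
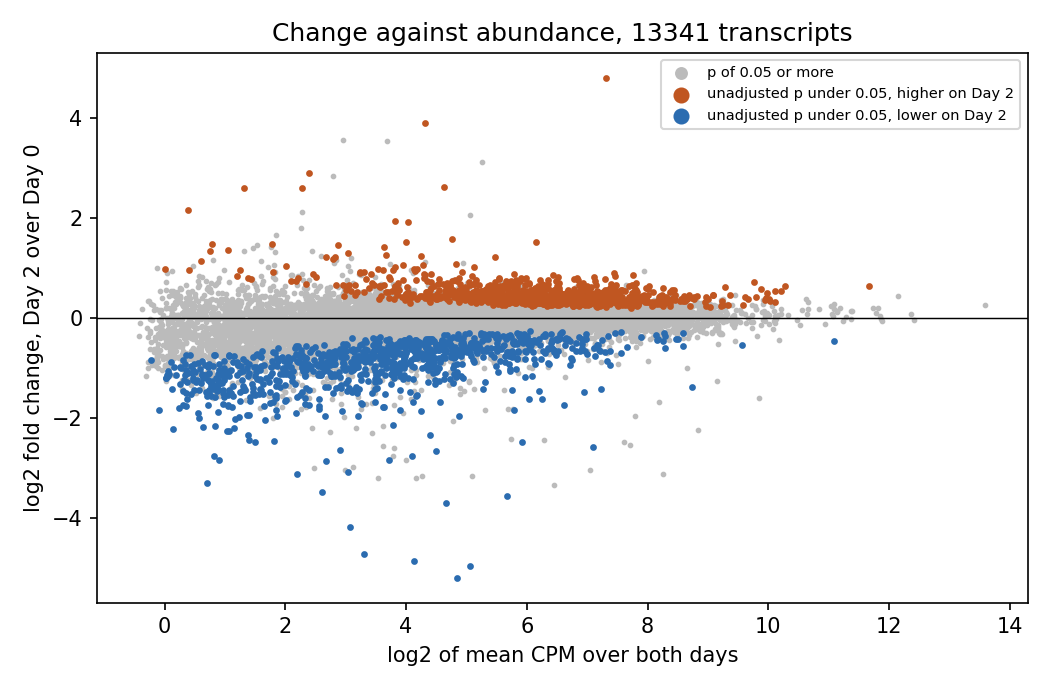
Log2 fold change of Day 2 over Day 0 against the log2 of mean CPM, with 1 point per tested transcript, coloured where the unadjusted p was under 0.05. Coloured points below the line lie mostly at low abundance and reach larger changes, with a median log2 fold change of -0.84 over 929 transcripts, while those above it lie mostly at high abundance with a median of 0.43 over 892. SEs were larger at low abundance, where a larger change is needed to reach this p.

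The abundance pattern was uneven among birds, and it was examined after the bins had been seen, so it was not tested. The median level of the least abundant bin was 3.52, 3.78, 2.80, 2.87 and 3.77 CPM in Day 0 birds 1 to 5 and 2.05, 3.14, 2.52, 2.52 and 2.81 CPM in Day 2 birds 1 to 5. Day 0 birds 1, 2 and 5 were above all Day 2 birds, while Day 0 birds 3 and 4 lay within the Day 2 range. The median of the most abundant bin was 164, 159, 168, 169 and 153 CPM on Day 0 and 180, 164, 172, 177 and 174 CPM on Day 2. Here Day 2 bird 2 fell among the Day 0 birds and the other Day 2 birds lay above all of them. The least abundant bin took 1.18% ± 0.231 (SD, n = 5) of Day 0 counts, against 0.871% ± 0.127 (SD, n = 5) on Day 2. For the middle bin the share of total counts, which is not scaled by TMM, did not overlap, at 8.49% to 9.07% on Day 0 and 8.13% to 8.47% on Day 2. Its TMM-scaled median level did overlap, at 30 to 30.6 CPM on Day 0 and 30.1 to 30.7 CPM on Day 2. Total counts were 13244184, 13856417, 10584044, 10454281 and 8304445 in Day 0 birds 1 to 5 and 13376380, 9306737, 11344490, 12709173 and 8927386 in Day 2 birds 1 to 5. The part of depth in the pattern was not tested, and the sources used here state no RNA quality.

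**Figure D4:**
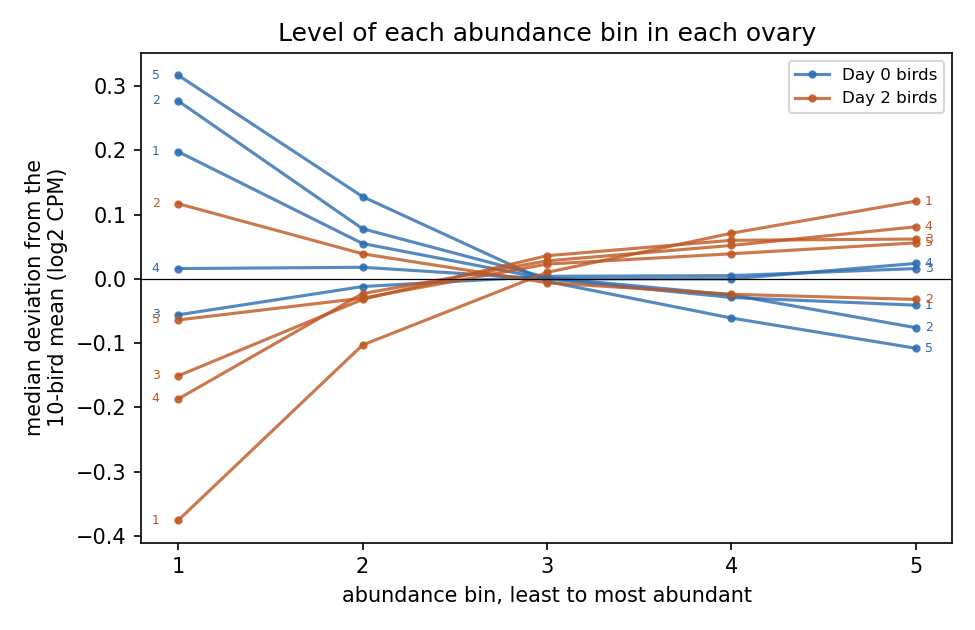
Median deviation of each ovary from the mean of the 10 ovaries, in log2 CPM, across 5 bins of abundance, with 1 line per bird and its number at both ends. Lines of Day 0 birds 1, 2 and 5 run from high to low. Day 2 bird 2 runs in the same direction less steeply, from 0.117 to -0.032. Day 2 bird 1 runs most steeply the other way, and Day 0 birds 3 and 4 lie between.

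Measures of the whole library, 1 value per bird, were compared by exact two-sided permutation tests, in which the smallest p that 5 against 5 birds allow is 0.00794. With all libraries thinned to 8304445 counts, Day 0 birds had 13196 ± 202 transcripts (SD, n = 5) at 10 counts or more, and Day 2 birds had 12872 ± 199.7 (SD, n = 5). Single Day 0 birds ranged from 12964 to 13380 and single Day 2 birds from 12587 to 13093, so the groups overlapped. The difference of 324 fewer transcripts on Day 2 had an exact permutation p of 0.0476, which did not pass once adjusted over the 8 measures (0.254). Shannon entropy, which is higher when counts are spread more evenly over transcripts, was 12.32 ± 0.0384 bits on Day 0 and 12.25 ± 0.0548 bits on Day 2 (SD over 5 birds each) (exact permutation p = 0.0635, adjusted 0.254). The lowest values were those of Day 2 birds 5, 2 and 3, and the other Day 2 birds lay among those of Day 0. The 10 most abundant transcripts of each bird held 4.95% ± 0.579 of its counts on Day 0 and 5.33% ± 0.754 on Day 2 (SD over 5 birds each) (exact permutation p = 0.397, adjusted 0.529). The 100 most abundant held 16.1% ± 0.566 (SD, n = 5) and 16.8% ± 1.45 (SD, n = 5) (exact permutation p = 0.341, adjusted 0.529).

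The most abundant transcripts were largely the same on both days. Of the 10 highest by mean CPM on each day, 9 were shared, and of the 100 highest, 90 were shared. Among the 110 transcripts in either list of 100, 19 were higher on Day 2 at an unadjusted p under 0.05 and 2 were lower, with a median log2 fold change of 0.10. Over all tested transcripts 6.69% were higher and 6.96% lower at this p. Of the 2669 transcripts of the most abundant bin, 334 were higher and 51 lower, so the lean toward higher was not particular to these 110.

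Ovaries of 1 day did not form a group of their own. Among the 500 most variable transcripts, component 1 took up 46.7% of the variance. Its scores were -35.5 and -36.3 in Day 0 birds 1 and 2, and 12.4, 7.68 and 0.711 in Day 0 birds 3 to 5. On Day 2 they were 37.1, -1.97, 29.9, 0.908 and -15.0 in birds 1 to 5. Day 0 birds 1 and 2 thus lay at one end and Day 2 birds 1 and 3 at the other, with the remaining birds of both days mixed between them. The day means did not differ beyond the spread of birds (exact permutation p = 0.190, adjusted 0.381). Component 2, with 19.0% of variance, ran from -32.4 to 10.4 on Day 0 and from -10.6 to 16.9 on Day 2 (exact permutation p = 0.167, adjusted 0.381).

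**Figure D5:**
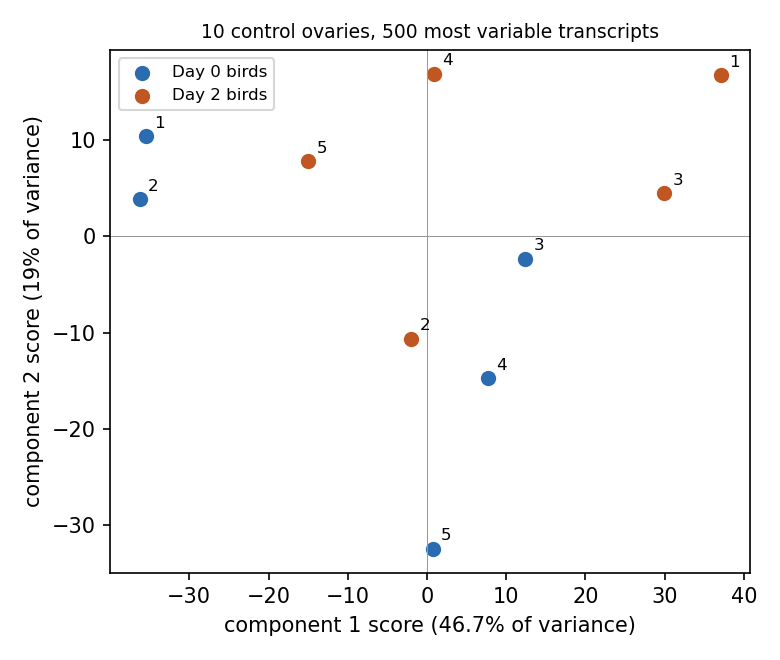
Scores of the 10 control ovaries on components 1 and 2 of the 500 most variable transcripts, numbered within each day. Day 0 birds 1 and 2 lie together at -35.5 and -36.3 on component 1, Day 0 bird 5 lies lowest on component 2 at -32.4, and the days overlap on both axes.

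Pairs of birds gave the same picture. Across tested transcripts, Pearson's r of log2 CPM had a median of 0.943 within Day 0, 0.953 within Day 2 and 0.944 between the days, where transcripts are not independent and no test was made. The bird most like each ovary was of the same day for 5 of 10 birds, 3 on Day 0 and 2 on Day 2. Day 0 birds 1 and 2 were the closest pair (r = 0.969). Day 0 bird 5 was closest to Day 2 bird 2 (r = 0.958) and Day 0 bird 3 to Day 2 bird 4 (r = 0.967). Day held over 50% of the variance of a transcript in 960 of 13341 transcripts.

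Birds of each day were about equally spread. The distance of a bird from the mean of the others of its day was taken in log2 CPM over all tested transcripts. It was 64.9 ± 5.04 on Day 0 and 64.7 ± 5.86 on Day 2 (SD over 5 birds each) (permutation p = 0.952, adjusted 0.952). The distances came from the true days and were kept fixed while days were permuted, so this p is approximate and not exact. The median SD of a transcript over birds was 0.319 on Day 0 and 0.308 on Day 2 on the log2 scale, and the SD was larger on Day 0 for 52.9% of transcripts. A range of 4-fold or more among the 5 birds was seen for 948 transcripts on Day 0 and 1064 on Day 2, and for 485 on both.

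Some differences belonged to 1 bird. Day 2 bird 5 exceeded each of the other 9 birds at least 8-fold (log2 CPM with a prior count of 2) in 9 transcripts, at 38.1 to 1510 CPM where no other bird was above 27.8 CPM, and these took 0.246% of its counts. Day 0 bird 5 did so in 7 transcripts, at 47.2 to 296 CPM where no other bird was above 18.8 CPM. The count was 0 in each of the other 8 birds. Of these transcripts, 3 of the 9 and 5 of the 7 were at an unadjusted p under 0.05 between the days, beside 13.6% of all tested transcripts. A bird far above all others raises the mean of its own day, so the way they were picked favours such a difference. These shares are therefore no evidence of a difference between the days, and the transcripts were not refitted without the bird.

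The transcript tree_swallow006548t1_sg0.0, picked after its values were seen, showed the reverse case of 1 bird apart from an otherwise clear split. It lay at 13.3, 14.5, 13.5, 13.6 and 13.3 CPM in Day 0 birds 1 to 5, and at 12.4, 50.2, 57.0, 52.2 and 31.8 CPM in Day 2 birds 1 to 5. The 5 Day 0 birds and Day 2 bird 1 were nearly level, and the other 4 Day 2 birds were all higher. With all birds the log2 fold change was 1.58 (SE 0.322, edgeR adjusted p = 0.181), and without Day 2 bird 1 it was 1.81 (SE 0.179, edgeR adjusted p = 0.00557), the 1 call made with that bird left out.

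Few transcripts were found on 1 day alone. Over the whole table, 0 transcripts were counted in every Day 2 bird and at 0 in every Day 0 bird, and 1 was counted in every Day 0 bird and at 0 in every Day 2 bird. That 1, tree_swallow003521t2_sg0.1, named for this reason after its values were seen, had 6, 13, 1, 2 and 3 counts in Day 0 birds 1 to 5, which was too low to be tested. A count of 0 allows up to 3 counts, or 0.224 to 0.336 CPM in the Day 2 libraries, and these limits cover counting error only. There were 20 transcripts at 0 in all Day 0 birds with any count on Day 2, at most 14 counts in all, and 35 in the opposite case, at most 42.

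No stem passed a test for altered shares of its transcripts. The 1025 stems with 2 or more tested transcripts were tested for a change in the shares of their transcripts between days. None passed with edgeR's test of differential usage (0 of 1025, or 0%), and 5 (0.488%) had an unadjusted Simes p under 0.05. The F test per stem also called 0, with 16 at an unadjusted p under 0.05. Both counts are lower than evenly spread p-values give when no share changes. These tests were thus conservative here, and 0 calls do not show that shares were stable. In 77 stems at least 2 transcripts had an unadjusted p under 0.05 for the level itself, and in all 77 these transcripts had the same direction. Over all 1025 stems, 189 held transcripts with log2 fold changes of both signs. Shared reads could give like counts to transcripts of a stem, and this was not tested.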

How the data were processed

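Per the labels' protocols, ovaries were frozen in the field, RNA was extracted with Trizol, and stranded mRNA libraries were sequenced. The submitters' processing notes name CASAVA, fastp 0.20.1, Bowtie2 2.4.2 and SAMtools; which reference, counting program and strand setting were used is not stated there. What the authors deposited is a table of raw whole-number counts, with 1 column per bird. A line that names no transcript had 0 counts and was left out.

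Counts of the 10 control birds were filtered with filterByExpr (minimum count 10, minimum total 15), scaled with TMM and tested with edgeR 4.0.16 under R 4.3.3 (quasi-likelihood, robust), with Benjamini-Hochberg adjustment over 13341 transcripts. SEs are the log2 fold change over the square root of F. Components used log2 CPM with a prior count of 2. Birds are numbered by sample order, which pairs none across days. The 2 transcripts of smallest p in each direction were named, and exceptions are marked. DESeq2 1.42.0, limma 3.58.1 voom, RLE factors, other filters, stem sums, all 20 birds in the fit and each bird left out were alternatives. The test was checked on simulated data. The members, lists and tests were chosen with earlier results of these data known.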

Additional observations from a re-analysis of the deposited data

Results flagged for a closer look

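In 1 of the 24 groups of 5 values that were checked, a bird lay far from the others, where chance gives about 1 in 20. The transcript tree_swallow005543t1_sg0.0 stood at 70.3 CPM in Day 0 bird 5 and at 83.9 to 88.9 CPM in the other 4 Day 0 birds. Without this bird its log2 fold change was 0.74 (edgeR adjusted p = 0.227, against 0.135 with all birds).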

How the results depend on the processing

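At an adjusted p under 0.05, the count of 0 calls held in edgeR with RLE factors, no filter and the stricter filter (1 CPM in 5 birds). It also held in edgeR with stem sums, all 20 birds and library totals, and in limma-voom. DESeq2 called 302. With 1 bird left out the calls ran from 0 to 1. At an adjusted p under 0.10 the main edgeR fit still called 0. The smallest adjusted p was 0.0924 in limma-voom and 0.0951 in edgeR with all 20 birds, so these 2 alternatives pass transcripts at 0.10. Transcripts at an unadjusted p under 0.05 numbered 1801 to 2308 over the alternatives with all 10 birds that tested transcripts, and 1318 to 2154 with 1 bird left out. With stem sums, 1673 of 12122 stems were at an unadjusted p under 0.05. Without Day 0 birds 1 and 2 together, 1204 transcripts were at this p, in a fit of 3 birds against 5 that had less power. This choice, like that of library totals, was made after seeing the data. With it 791 transcripts had no overlap, where 3 birds against 5 separate more easily by construction. With 10 bins, 90.0% of the transcripts at an unadjusted p under 0.05 in the most abundant bin were higher on Day 2, against 86.8% with 5. These bins hold 1335 and 2669 transcripts, so the first is a narrower cut of the same fit and not a changed result. With 1 bird left out the difference of Day 2 minus Day 0 ran from -901898 to 486095 in total count, from -8.68 to 20.2 in component 2 and from -4.96 to 3.82 in distance to birds of the same day, so none of these has a fixed direction. The other 5 measures of birds kept their direction and none passed. Shares within stems gave 0 calls in each alternative. No paired analysis was possible because the birds of the groups carry separate names and no shared replicate numbers. The median SE was 0.398 in the least abundant bin and 0.153 in the most abundant, and how much of either comes from depth was not separated from variation among birds.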
